A study of Mus musculus with 48 samples.

Results

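The 10 genes described here build, carry and remodel lipoproteins. They are the apolipoprotein genes Apoa1, Apoa2, Apoa4, Apoa5, Apob, Apoc2, Apoc3 and Apoe, the lipid transfer gene Mttp and the hepatic lipase gene Lipc. They were chosen by name, as the rows whose Ensembl identifier maps to these symbols, and all 10 were found among the 56748 gene identifiers counted in each library.

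The libraries are RNA sequencing of 3 tissues, namely liver, brown fat (BAT) and white fat of the epididymal depot (eWAT), from male littermate mice that carried a hepatocyte deletion of angiotensinogen (hepAGT-/-, here KO) or did not (hepAGT+/+, here WT). Mice of both genotypes ate the same Western diet, with 21% milk fat and 0.2% cholesterol, over 12 weeks, so there is no group on another diet. Housing was either at 20 to 22 °C (room temperature, RT) or at 30 °C (thermoneutrality, TN), the temperature at which a mouse needs little extra heat production. Each of the 12 groups of tissue, genotype and housing had 4 libraries, labelled as biological replicates, which gives 48 libraries in all. The strain, the age of the mice and the driver of the deletion are not given in the sources used here.

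Levels are CPM, the counts of a gene per 1e6 counts of the library, after TMM scaling of the library sizes within each tissue. Changes are log2 fold changes, KO minus WT or TN minus RT. Their standard errors (SE) were derived as the absolute change divided by the square root of the F statistic of edgeR's test. The word called marks a gene with an adjusted p under 0.05 from edgeR's quasi-likelihood test, where the Benjamini-Hochberg adjustment covers every gene tested in that tissue. In units of 1e6 counts, libraries held 23.7 to 36.5 in liver, 25.3 to 39.4 in BAT and 28.7 to 43.7 in eWAT. Agt, the deleted gene, was lower in KO liver, with log2 changes of -1.14 at RT (adjusted p 0.0096) and -1.29 at TN (adjusted p 0.00113), and the groups did not overlap. The eWAT library WT RT replicate 18 held epididymis transcripts (a summed level of 879 CPM over 8 markers), and BAT libraries held from 1.19 to 6588 CPM of 7 skeletal muscle markers. Hepatocyte transcripts in the adipose libraries are given beside the adipose results below.

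Lipoproteins carry triglyceride and cholesterol through blood as a lipid core wrapped in phospholipid and apolipoproteins. The liver makes very low density lipoprotein around a single molecule of apolipoprotein B (Apob), onto which microsomal triglyceride transfer protein (Mttp) loads lipid inside the endoplasmic reticulum. Apolipoproteins A-I and A-II (Apoa1, Apoa2) are the main proteins of high density lipoprotein, A-IV (Apoa4) accompanies triglyceride-rich particles, and A-V (Apoa5), C-II (Apoc2) and C-III (Apoc3) raise or lower the hydrolysis of triglyceride by lipoprotein lipase. Apolipoprotein E (Apoe) is the ligand through which remnant particles are cleared, and is also made by macrophages and adipocytes. Hepatic lipase (Lipc) remodels remnants and high density lipoprotein at the liver surface.

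The genes lie at several places in the mouse genome (GRCm38, GENCODE M21). Apoa1 (chr9:46228580-46230466, + strand), Apoc3 (chr9:46232933-46235636, -), Apoa4 (chr9:46240696-46243459, +) and Apoa5 (chr9:46268633-46271919, +) form a cluster on chromosome 9. Lipc (chr9:70798128-70952226, -) is on the same chromosome. Apoe (chr7:19696109-19699188, -) and Apoc2 (chr7:19671579-19677941, -) lie near each other on chromosome 7. Apob (chr12:7977648-8016835, +), Mttp (chr3:138089854-138144968, -) and Apoa2 (chr1:171225054-171226379, +) stand alone.

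For some of these genes the counts are uncertain because annotated genes share their exons. Of the exonic bases of Apoc2, 79.5% also belong to Gm44805, a gene model on the same strand that reads through Apoc2, and the counts of Apoc2 were low in every library. Of the exonic bases of Apoa4, 34.9% are covered by Gm47528 and 34.8% by Gm10680, both on the opposite strand. Opposite-strand genes cover 20.8% of Apoa5 and 9.49% of Mttp. The strand setting of the counting is not given in the sources used here, so reads of these genes and their partners cannot be told apart. No annotated gene shares exons with Apoa1, Apoa2, Apob, Apoc3, Apoe or Lipc.

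The 10 genes were first compared between tissues. All 10 were higher in liver than in BAT and all 10 were higher in liver than in eWAT (edgeR, adjusted p from 7.31e-31 for Apoe to 4.92e-10 for Apob against BAT, and from 1.92e-23 for Apoe to 2.21e-09 for Apob against eWAT). Over all genes tested, 68.6% were called between liver and BAT and 73.8% between liver and eWAT, in either direction. Per kilobase of exon, the median level over the 16 liver libraries was highest for Apoa2 (13769 CPM per kb), followed by Apoe (7768), Apoa1 (6010), Apoc3 (1780), Apoa4 (502), Apoa5 (485) and Apob (320). Lipc (67.7), Mttp (50.1) and Apoc2 (3.52) were lowest. The places of Apoc2 and Apoa4, and less so of Apoa5 and Mttp, are uncertain because other annotated genes share their exons. The medians of Apoa4 and Apoa5 lay within the spread of Apoa4, whose highest liver library was 10.4 times its lowest. The other genes of the order varied less, from 1.64-fold between the highest and the lowest liver library for Mttp to 2.39-fold for Apob, apart from Apoc2 at 14.9-fold.

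The difference between liver and adipose tissue was smallest for Apoe. Its CPM ran from 12219 to 26866 in liver, from 3192 to 5385 in eWAT and from 184 to 2009 in BAT, so the ranges of the tissues did not overlap. In the fit over all 48 libraries, liver exceeded eWAT 6.05-fold (SE 0.12 on the log2 scale) and BAT 23.7-fold (a log2 difference of 4.57, SE 0.13). That fit scaled the 3 tissues together, while the CPM were scaled within each tissue. The ratios of the CPM between tissues therefore differ from these folds. For the other 9 genes the log2 differences of liver against an adipose tissue ran from 5.69 (Mttp against BAT) to 8.51 (Apoa4 against BAT). Apoe was also the member called between the adipose tissues, higher in eWAT than in BAT (log2 difference 1.97, SE 0.12, adjusted p 3.87e-19), where 60.3% of all genes were called. Without the library BAT KO RT replicate 9, or without BAT KO TN replicate 2, Lipc was called as well, which made 2 members.

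**Figure D1:**
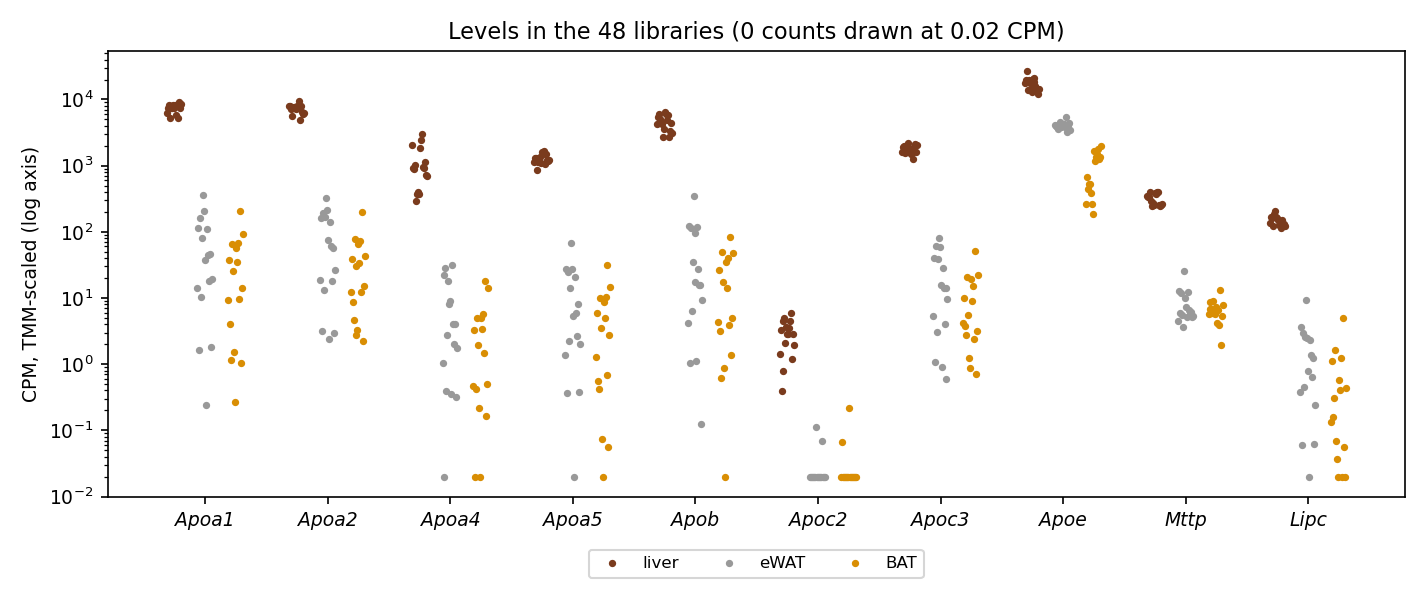
Level of each of the 10 genes in the 48 libraries (vertical axis, CPM on a log axis, TMM-scaled within each tissue). Each point is 1 library, coloured by tissue. Liver points form tight bands near the top for all genes but Apoa4 and Apoc2, while in eWAT and BAT most genes spread widely (Apoa1 from 0.265 to 207 CPM in BAT) and Apoe and Mttp stay within narrower bands.

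Whether the hepatocyte deletion changed these genes was asked in liver first. At TN, Apob and Mttp were lower in KO liver and were the 2 members called of 10 tested, against 3.18% of all genes. At RT, 0 of 10 were called by edgeR (5 had an unadjusted p under 0.05, and DESeq2 called 2, Apoa4 and Mttp), against 0.0853% of all genes. With both housing temperatures averaged, Apoa4, Apob and Mttp were lower in KO, 3 called of 10, against 5.19% of all genes. The median log2 change of the 10 genes was 0.04 at RT, -0.20 at TN and -0.06 averaged, beside 0.02, 0.05 and 0.04 over all genes tested. In bulk tissue, fewer cells of a type and less RNA per cell cannot be told apart. The liver libraries also differed in the share of counts in identifiers that matched a gene symbol. At TN it ran from 97.7% to 99.7% in WT and from 96.3% to 97.6% in KO, without overlap. At RT it ran from 96.8% to 99.7% in WT and from 96.3% to 98.7% in KO. The part of this difference in the liver results was not tested.

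**Figure D2:**
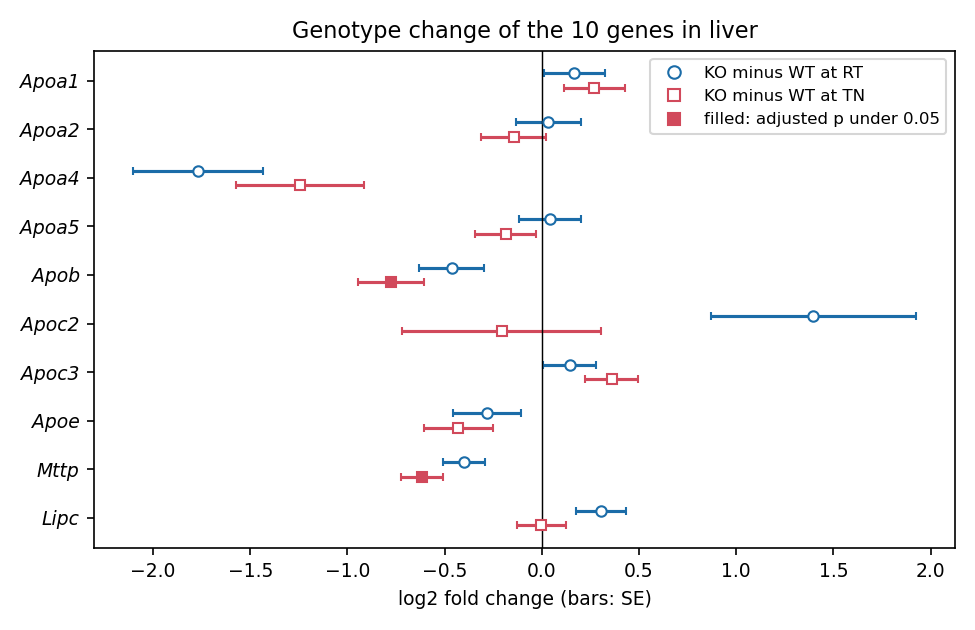
Log2 fold change of each gene between KO and WT liver (horizontal axis; points are estimates, bars are SE) at RT (circles) and TN (squares), filled where the adjusted p was under 0.05. Apoa4 lies farthest to the left at both temperatures, and Apob and Mttp are the filled points at TN. Among the open points, Apob and Mttp at RT and Apoe at TN (-0.43) lie left of 0, and Apoc3 at TN (0.36) lies right of it. Apoc2 at RT, which was counted at a few CPM, lies away from 0 too.

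Apob encodes the structural protein of very low density lipoprotein. In liver at TN its CPM was 6456, 5962, 4935 and 5865 in the WT libraries and 2701, 3302, 4422 and 3142 in the KO libraries. Every KO library was below every WT library. The WT mean was 5804 ± 635 CPM (SD, n = 4) and the KO mean 3392 ± 732 CPM. Their log2 change was -0.78 (SE 0.17, adjusted p 0.0155 by edgeR). The call was lost without KO TN replicate 2 (adjusted p 0.0519) and without KO TN replicate 4 (adjusted p 0.0556).

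At RT the CPM of Apob was 4289, 5360, 6073 and 5032 in WT and 4507, 4258, 2746 and 3529 in KO, and the highest KO library (4507 CPM) lay above the lowest WT library (4289 CPM). The log2 change of -0.46 (SE 0.17, adjusted p 0.312) did not pass. Averaged over housing, Apob was lower in KO by a log2 change of -0.62 (SE 0.12, adjusted p 0.00481), and this call was kept in each of the 20 alternative fits. The exonic length of Apob is 13934 bases, and in the TN comparison the log2 changes of liver genes varied with length. Among genes whose mean level reached 10 CPM, the median change was 0.19 for the 1082 genes under 2 kb, -0.13 for the 1110 genes of 8 to 12 kb and -0.10 for the 524 genes over 12 kb. It was -0.10 for the 3104 genes of 4 to 8 kb, the range of Mttp (6206 bases). Averaged over housing, the median was 0.12 under 2 kb, -0.04 for 4 to 8 kb and -0.06 over 12 kb. Apoa1, Apoa2, Apoa4, Apoc2 and Apoc3 are under 2 kb, and Abca1 and Mia2, described below, are of 8 to 12 kb. The part of this length pattern in the changes of Apob and these other genes was not tested.

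Mttp encodes the large subunit of the transfer protein that loads lipid onto apolipoprotein B. Its CPM in liver at TN was 392, 374, 401 and 404 in WT and 250, 248, 258 and 267 in KO. At RT it was 345, 331, 331 and 398 in WT and 290, 246, 276 and 254 in KO. At both temperatures every KO library was below every WT library. At TN the gap between the groups was wider than the range within either, and at RT it was narrower than both. The log2 change was -0.62 (SE 0.11, adjusted p 0.00432) at TN, -0.40 (SE 0.11, adjusted p 0.148) at RT and -0.51 (SE 0.08, adjusted p 0.000638) averaged over housing. The TN call held in all 21 alternative fits and the averaged call in all 20. At RT, DESeq2 called Mttp (log2 change -0.41, adjusted p 0.00612).

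Apoa4 had the largest log2 change of the 10 genes in KO liver. At RT its CPM was 2076, 911, 878 and 1033 in WT and 291, 374, 397 and 376 in KO. The highest KO library was less than the lowest WT library. The WT mean was 1225 ± 571 CPM (SD, n = 4) and the KO mean 359 ± 47.2 CPM. Their log2 change of -1.77 (SE 0.33, adjusted p 0.0797) did not pass by edgeR in the fit over 16 libraries. It passed by DESeq2 (adjusted p 0.000265), in the fit to only the 8 libraries compared (0.036) and without WT TN replicate 24 (0.0153).

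At TN the CPM of Apoa4 was 1869, 2396, 3019 and 967 in WT and 909, 1138, 730 and 708 in KO, and WT TN replicate 24 lay among the KO libraries. The log2 change was -1.24 (SE 0.33, adjusted p 0.0543). It passed by DESeq2 (adjusted p 0.0104), when genes had to reach 1 CPM in 4 or more libraries (0.0428), without WT RT replicate 11 (0.0178) and without WT TN replicate 24 (0.0105). Averaged over housing, Apoa4 was lower in KO by a log2 change of -1.51 (SE 0.23, adjusted p 0.00296), a call kept in each of the 20 alternative fits. The 2 genes that overlap Apoa4 on the other strand moved with it; they were looked at after the values of Apoa4 were seen. Gm47528 fell in KO by 1.74 at RT (adjusted p 0.0023) and by 1.54 at TN (adjusted p 0.00147) on the log2 scale. Gm10680 had log2 changes of -1.95 (adjusted p 0.0797) and -1.22 (adjusted p 0.077). Their CPM in WT RT liver was 24.1 ± 9.12 and 144 ± 60.4 (SD, n = 4), against 1225 for Apoa4.

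**Figure D3:**
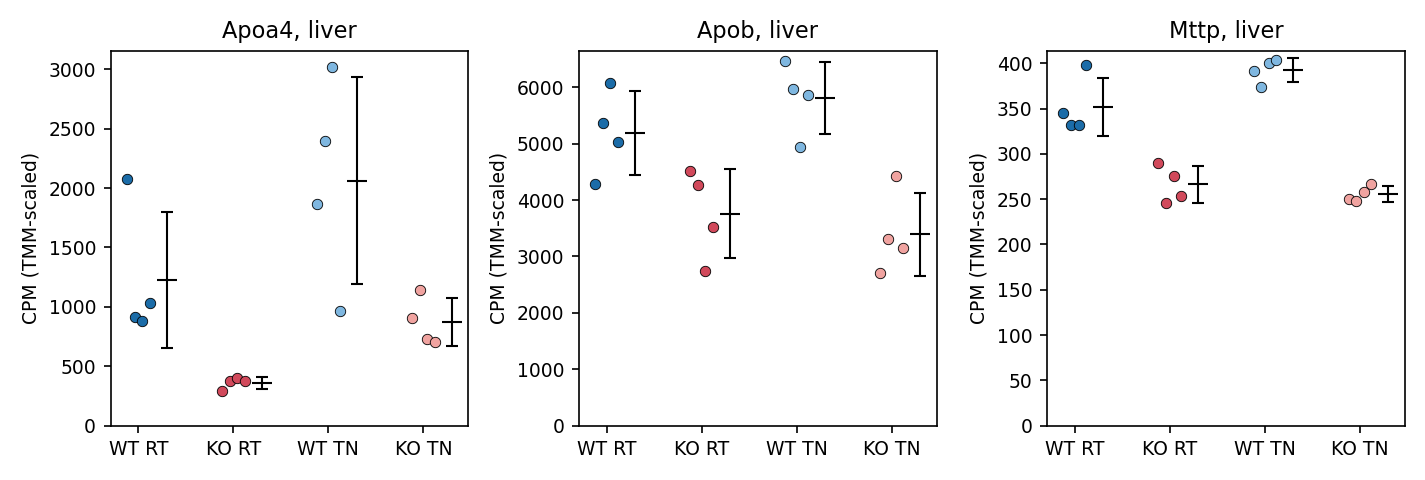
CPM of Apoa4, Apob and Mttp in the 16 liver libraries (vertical axes, TMM-scaled CPM from 0; points are libraries, bars are mean and SD of 4 libraries). KO points lie below WT points for Mttp at both temperatures, for Apob at TN and for Apoa4 at RT, and 1 WT TN library of Apoa4, at 967 CPM, lies among the KO TN libraries.

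Of the 3 members lower in KO liver, the windows of Apoa4 and Apob held a match to CAAAGNNC and that of Mttp held none. Among the members not called, the window of Apoc2 and 1 of the 2 windows of Lipc held a match too. The upstream sequences of Apoa4 and Apob are shown to make those matches visible; CAAAGNNC is the core of the direct repeat element that liver nuclear receptors such as HNF4A bind. The sequences are RefSeq promoter windows (GRCm38.p6, + strand, 5′ to 3′), cut before the first base of the gene in GENCODE or RefSeq, whichever is earlier, with matches to CAAAGNNC on either strand in capitals.
Apoa4, chr9:46240594-46240695: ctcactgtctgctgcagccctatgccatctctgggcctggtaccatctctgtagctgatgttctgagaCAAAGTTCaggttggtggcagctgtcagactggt
Apob, chr12:7977427-7977628: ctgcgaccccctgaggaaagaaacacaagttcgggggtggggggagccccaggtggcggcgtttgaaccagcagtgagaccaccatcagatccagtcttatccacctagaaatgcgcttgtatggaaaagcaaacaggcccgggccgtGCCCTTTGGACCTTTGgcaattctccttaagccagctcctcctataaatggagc
The Apoa4 stretch of 102 bases holds 1 match and the Apob stretch of 202 bases holds 2, next to each other on the opposite strand. The 250 bases before the start site of the Apob window hold 3, the third past the end of the stretch shown. Over the 32851 promoter windows of the table, the same first 102 bases held a match in 6.30%, the same first 202 bases in 12.6% and the 250 bases in 15.4%. The motif was chosen with these sequences in view, and a match describes the letters only. Of the 10 genes, 9 had an entry in the table; Apoc3 had none.

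Among the high density lipoprotein genes, Apoa1 and Apoa2 were not called in any liver comparison. Apoa1 ran from 5295 to 8353 CPM in WT and from 7333 to 9148 CPM in KO, with log2 changes of 0.17 at RT and 0.27 at TN. Apoa2 ran from 4880 to 9381 CPM in WT and from 6047 to 8044 CPM in KO. The KO and WT ranges overlapped for both genes at each temperature.

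Among the regulators of lipoprotein lipase, Apoa5, Apoc2 and Apoc3 were not called. Apoc3, an inhibitor of triglyceride clearance, was 1619, 1480, 1630 and 1257 CPM in WT at TN and 1905, 2132, 1607 and 2030 CPM in the KO libraries, which gave a change of 0.36 (log2, SE 0.13, adjusted p 0.152). One KO library, at 1607 CPM, lay within the WT range. Apoa5, an activator, had changes of 0.04 at RT and -0.18 at TN. Apoc2, the cofactor of lipoprotein lipase, was 1.44, 3.23, 0.398 and 0.780 CPM in WT at RT and 4.47, 5.07, 2.12 and 3.69 CPM in the KO libraries. The change of 1.40 on the log2 scale (SE 0.53) had an adjusted p of 0.34. At TN it was 2.97 ± 2.07 CPM (SD, n = 4) in KO and 3.43 ± 0.743 CPM in WT. These low counts are for a gene whose exons are mostly shared with another gene model, so the level of Apoc2 transcript is not given by them.

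The clearance genes were not called by edgeR either. Apoe in liver at TN was 20454, 18340, 20915 and 15789 CPM in WT and 14763, 14590, 12219 and 14513 CPM in KO. The groups did not overlap, and the lowest WT library (15789 CPM) lay closer to the KO libraries than to the next WT library. The log2 change was -0.43 (SE 0.18, adjusted p 0.194), and -0.35 (SE 0.12, adjusted p 0.102) averaged over housing. The averaged change passed by DESeq2 (adjusted p 0.0444) and without WT RT replicate 18 (0.0443). Lipc was 134, 165, 161 and 123 CPM in WT at RT and 187, 205, 168 and 161 CPM in the KO libraries, so the groups overlapped at the ends of their ranges. The change was 0.30 on the log2 scale (SE 0.13), with an adjusted p of 0.393.

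Counting groups that did not overlap gave 2 of 10 genes at RT (Apoa4 and Mttp), beside 5.83% of all genes, and 3 of 10 at TN (Apob, Apoe and Mttp), beside 12.5% of all genes. Hepatocyte and macrophage transcripts were measured in the same libraries. None of the 10 hepatocyte markers was called in liver at either temperature (Alb, Ttr, Ahsg, Fga, Fgb, Fgg, Hpx, Cps1, F2 and Serpinc1), and their summed level at TN ran from 73005 to 91052 CPM in WT and from 74780 to 92897 CPM in KO. The summed level of 10 macrophage markers at TN ran from 305 to 447 CPM in WT and from 434 to 1079 CPM in KO, with 1 marker of 10 called. At RT it ran from 359 to 489 CPM in WT and from 235 to 464 CPM in KO. The part of the macrophage transcripts in the liver results was not tested.

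Housing temperature was compared next in liver. None of the 10 genes was called by edgeR between TN and RT in WT (3 had an unadjusted p under 0.05, DESeq2 called 0), where 0.0227% of all genes were called. In KO, 0 of 10 were called (2 at an unadjusted p under 0.05, 1 by DESeq2), beside 0.114% of all genes. Averaged over genotype, 0 of 10 were called (2 at an unadjusted p under 0.05, 1 by DESeq2), beside 0.279%. Apoa4 was the gene that DESeq2 called. In KO liver its 4 TN libraries (708 to 1138 CPM) lay above its 4 RT libraries (291 to 397 CPM), a log2 change of 1.28 (SE 0.33, adjusted p 0.134 by edgeR, 0.0160 by DESeq2 and 0.0109 in the fit to only the 8 libraries compared). Averaged over genotype its change was 1.01 (SE 0.23, adjusted p 0.0816), which passed without WT RT replicate 11 (0.0117) and without WT TN replicate 24 (0.0173).

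Lipc in KO liver had the reverse order. Its CPM was 187, 205, 168 and 161 at RT and 151, 126, 132 and 123 at TN, with no overlap (log2 change -0.44, SE 0.13, adjusted p 0.151). For Lipc and for Apoa4 in KO liver, the share of all genes without overlap between temperatures is not given here. The interaction of genotype and housing was called for 0 of 10 genes (1 at an unadjusted p under 0.05, 0 by DESeq2) and for 0% of all genes (1290 genes at an unadjusted p under 0.05, 17 by DESeq2). Apoc2 was the gene with the unadjusted p under 0.05, at a log2 interaction of -1.60 (adjusted p 0.654).

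The genes whose liver pattern was most like each called member were ranked by Pearson's r of log2 CPM over the 16 liver libraries. For Apoa4 they were Cntnap1 (r 0.950), Plin2 (0.935) and Gpc1 (0.921). For Apob they were F5 (0.949), Arhgap35 (0.944) and Plod1 (0.943). For Mttp they were Abca5 (0.911), Vwa8 (0.909) and Vac14 (0.908). With the group means removed, r stayed at 0.684 to 0.798 for the genes of Apoa4 and at 0.840 to 0.932 for those of Apob, and was 0.177 to 0.473 for those of Mttp. Among the called members themselves, r was 0.773 for Apob with Mttp, 0.673 for Apoa4 with Mttp and 0.444 for Apoa4 with Apob. Within groups these became -0.11, -0.21 and -0.48, so libraries of a group with more Apob did not have more Apoa4 or Mttp. These r values describe libraries that share their groups and scaling.

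Other genes of the pathway were counted in 5 lists, of which 55 genes were tested in liver. Between genotypes, 1 of the 55 was called at RT (1.82%, beside 0.0853% of all genes) and 2 at TN (3.64%, beside 3.18%), so the share at TN is near that of all genes. Of 7 other apolipoproteins, 6 were tested in liver, and Apom, a carrier of sphingosine 1-phosphate on high density lipoprotein, rose by 0.94 on the log2 scale in KO liver at RT (adjusted p 0.0445). Of 12 genes of particle assembly and secretion, Mia2, which helps large cargo leave the endoplasmic reticulum, was lower in KO at TN (-0.47, adjusted p 0.0446). Of 11 lipases, lipase regulators and lipid transfer genes, Abca1, the cholesterol exporter that lipidates apolipoprotein A-I, was lower in KO at TN (-0.68, adjusted p 0.0458). None of the 10 receptor and clearance genes and none of the 16 transcriptional regulators was called in liver by edgeR between genotypes or temperatures. Median log2 changes of the lists at TN were 0.30, -0.10, -0.26, -0.25 and -0.16 in this order, beside 0.05 over all genes.

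In BAT the members were compared in the same way. Apoe was called between housing temperatures in both genotypes, and no other member was called in any BAT comparison; Apoc2 had too few counts to be tested, which left 9. At TN against RT, 1 of 9 was called in WT, beside 32.5% of all genes, 1 of 9 in KO, beside 15.2%, and 1 of 9 averaged over genotype, beside 38.5%. Between genotypes, 0 of 9 were called by edgeR at RT, at TN or averaged, beside 0.0887%, 0% and 0% of all genes, and none had an unadjusted p under 0.05 or was called by DESeq2. The interaction was called for 0 of 9 members and 0% of all genes by edgeR, and none of the 9 had an unadjusted p under 0.05 or was called by DESeq2. Over all genes, the comparisons with 0% had 945, 2505 and 1832 genes at an unadjusted p under 0.05 (genotype at TN, genotype averaged, interaction) and 20, 399 and 21 by DESeq2.

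Apoe in BAT was 268, 663, 442 and 520 CPM in WT at RT and 1674, 1165, 1361 and 1511 CPM in WT at TN. In KO it was 527, 384, 267 and 184 CPM at RT and 1771, 1268, 1336 and 2009 CPM at TN. All 8 TN libraries lay above all 8 RT libraries. The share of all BAT genes whose TN and RT libraries do not overlap is not given here, so this order cannot be weighed against it. The log2 change was 1.59 in WT (SE 0.30, adjusted p 0.000654), 2.23 in KO (SE 0.31, adjusted p 0.000121) and 1.91 averaged (SE 0.21, adjusted p 2.61e-06). The difference of this change between genotypes was not called by edgeR (interaction 0.64, SE 0.41, adjusted p 0.584).

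Macrophage transcripts rose with Apoe in BAT. Of the 10 macrophage markers (Adgre1, Cd68, Csf1r, C1qa, C1qb, Trem2, Gpnmb, Cd5l, Clec4f and Lyz2), 8 were higher at TN in WT and 8 in KO. Their summed level ran from 49.3 to 130 CPM in WT RT, 59.1 to 73.8 in KO RT, 235 to 541 in WT TN and 190 to 292 in KO TN, with Cd5l at 0 counts in 3 of the 16 libraries and Clec4f in 2. With the log2 marker sum as a covariate, the Apoe change was 0.66 in WT (SE 0.60, adjusted p 0.577), 1.33 in KO (SE 0.58, adjusted p 0.312) and 0.99 averaged (SE 0.56, adjusted p 0.352), and Apoe was no longer called. The marker sums of the RT and TN libraries do not overlap, and with this covariate the number of all genes called fell from 5867 to 974 in WT and from 2735 to 103 in KO, so marker sum and housing can hardly be told apart here. Per CPM of the marker sum, Apoe was 3.75 to 5.29 CPM in WT RT, 2.63 to 6.12 in KO RT, 2.85 to 7.32 in WT TN and 7.33 to 8.67 in KO TN. This ratio was higher in KO TN than in every RT library, while that of WT TN overlapped RT.

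**Figure D4:**
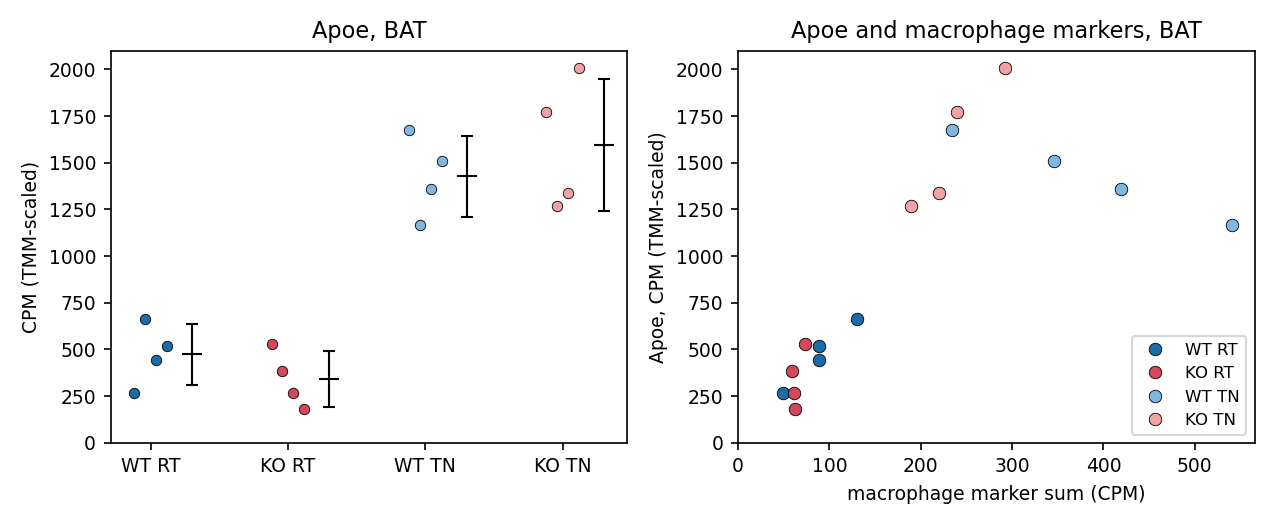
Apoe in the 16 BAT libraries by group (left; points are libraries, bars are mean and SD of 4) and against the summed CPM of 10 macrophage markers (right). The TN libraries, at 1165 to 2009 CPM, lie above the RT libraries and to their right.

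Of the 54 genes of the pathway lists tested in BAT, 8 rose and 10 fell at TN in WT (33.3%, beside 32.5% of all genes), and 6 rose and 5 fell in KO (20.4%, beside 15.2%). The WT share is near that of all genes, so the genes below are given as values and not as a result about the pathway. Of the other apolipoproteins, Apoc1, the neighbour of Apoe on chromosome 7, fell by 1.85 in WT and 1.20 in KO on the log2 scale, opposite to Apoe, and Apod rose by 1.75 and 1.77. Of the assembly genes, P4hb, which encodes the partner subunit of Mttp, rose in both genotypes (0.71 and 0.77) and Mia3 rose in WT (0.50), while Sar1b (-1.09 and -0.83) and Lpcat3 (-0.73 and -0.94) fell in both and Mia2 fell in WT (-0.42). Of the lipases and their regulators, Angptl4 (1.42 and 1.64) and Abcg1 (1.18 and 0.84) rose and Lmf1 (-0.83 and -0.46) fell in both genotypes, and Angptl8 fell in WT (-2.62). Of the receptors, Lrp1 (1.15 and 0.86) and Sdc1 (1.49 and 1.44) rose in both genotypes. Of the regulators, Nr1h3 fell in both (-0.49 and -0.57), Esrra (-0.87) and Srebf1 (-0.55) fell in WT, and Nr5a2 rose in WT (3.25).

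In eWAT 0 of the 9 members tested was called by edgeR in any comparison, and none had an unadjusted p under 0.05 or was called by DESeq2. Of all genes, 4.34% were called between genotypes at RT, 0.586% at TN and 8.46% averaged. Between temperatures, 0% were called in WT (1324 genes at an unadjusted p under 0.05, 100 by DESeq2), 1.74% in KO, 2.22% averaged and 0% for the interaction (1439 genes at an unadjusted p under 0.05, 12 by DESeq2). Apoe was at 4168, 3979, 3800 and 3544 CPM in WT RT, 4165, 4521, 3798 and 4194 in KO RT, 4325, 4207, 3780 and 5385 in WT TN and 3192, 4143, 4361 and 3507 in KO TN. The 4 groups overlapped, and the log2 changes between them ran from -0.22 to 0.19. Of the 10 macrophage markers, 7 were lower in KO eWAT averaged over housing, beside an averaged Apoe change of -0.06 (SE 0.09, adjusted p 0.811).

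In the eWAT pathway lists, 4 of 56 genes tested were called between genotypes at RT (7.14%, beside 4.34% of all genes). Pltp, the phospholipid transfer protein gene (log2 change -1.14, adjusted p 0.0086), and Vldlr, a receptor that takes up triglyceride-rich particles (-0.98, adjusted p 0.00257), were lower in KO at RT. Ppargc1a (1.30, adjusted p 0.023) and Esrra (0.44, adjusted p 0.046) were higher in KO at RT, and Esrra was lower at TN than at RT in KO (-0.48, adjusted p 0.0493). No other gene of the 5 pathway lists was called in eWAT between 2 groups.

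The genotype change of the members did not differ between tissues by edgeR. Of 10 members, 0 were called for the genotype effect in liver minus eWAT (0 at an unadjusted p under 0.05, 0 by DESeq2), beside 2.83% of all genes, and 0 in liver minus BAT (1 at an unadjusted p under 0.05, 0 by DESeq2), beside 1.48%. The errors of these differences were wide for the genes that varied in adipose tissue, at a log2 difference of -0.14 (SE 1.34) for Apob in liver minus eWAT.

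Liver transcripts in the adipose libraries were measured with the 10 hepatocyte markers, none of which is a member. Their summed level ran from 5.25 to 2448 CPM in BAT and from 27.9 to 4722 CPM in eWAT, that is from 0.00676% to 3.15% and from 0.0359% to 6.08% of the liver median. The highest library of a tissue was 466 times the lowest in BAT and 169 times in eWAT. A marker at 0 counts was Ahsg in 1 BAT library and Cps1 and F2 in 1 eWAT library each, so some hepatocyte transcript was present in every library. No hepatocyte marker was called in a BAT or eWAT comparison.

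For most members the median ratio to these markers in adipose tissue was near that of liver. As a percent of the marker sum, Apoa1 was at a median of 9.20% in liver, 9.33% in BAT and 8.73% in eWAT. Apob was at 5.68%, 5.39% and 4.71%, and Apoc3 at 2.38%, 2.92% and 3.01%. The median ratio in adipose tissue was 0.690 to 1.27 times that of liver for Apoa1, Apoa2, Apoa4, Apoa5, Apob, Apoc3 and Lipc. Single libraries departed from it. Apoc3 was above the liver range of the ratio in 8 of 16 BAT libraries, up to 6.38 times the liver median, and in 9 of 16 eWAT libraries. Apoa2 was above it in 6 of 16 BAT libraries, up to 5.93 times, and in 8 of 16 eWAT libraries, and Lipc in 4 and 5. The CPM of these genes varied widely. Apoa1 ran from 0.265 to 207 CPM in BAT and from 0.244 to 360 CPM in eWAT, and Apob from 0 to 82.5 and from 0.127 to 346 CPM. How much of their adipose level comes from liver tissue or RNA in the sample and how much from cells of the adipose tissue was not tested.

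The medians of Apoe and Mttp were far above the liver ratio. Apoe stood at a median of 13.2 times the liver ratio in BAT and 51.8 times in eWAT, and was above the liver range of the ratio in 16 of 16 libraries of each tissue. At the liver ratio, the hepatocyte transcripts present would account for a median of 7.59% of the Apoe counts in BAT and 1.93% in eWAT. Mttp stood at 10.4 times the liver ratio in BAT and 4.58 times in eWAT, above the liver range in 14 and 13 of 16 libraries. Its level in adipose tissue was low, from 1.96 to 13.0 CPM in BAT and from 3.64 to 25.3 CPM in eWAT, against 246 to 404 CPM in liver. In the 6 eWAT libraries with the most hepatocyte counts, Mttp was 1.02 to 2.29 times the liver ratio.

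**Figure D5:**
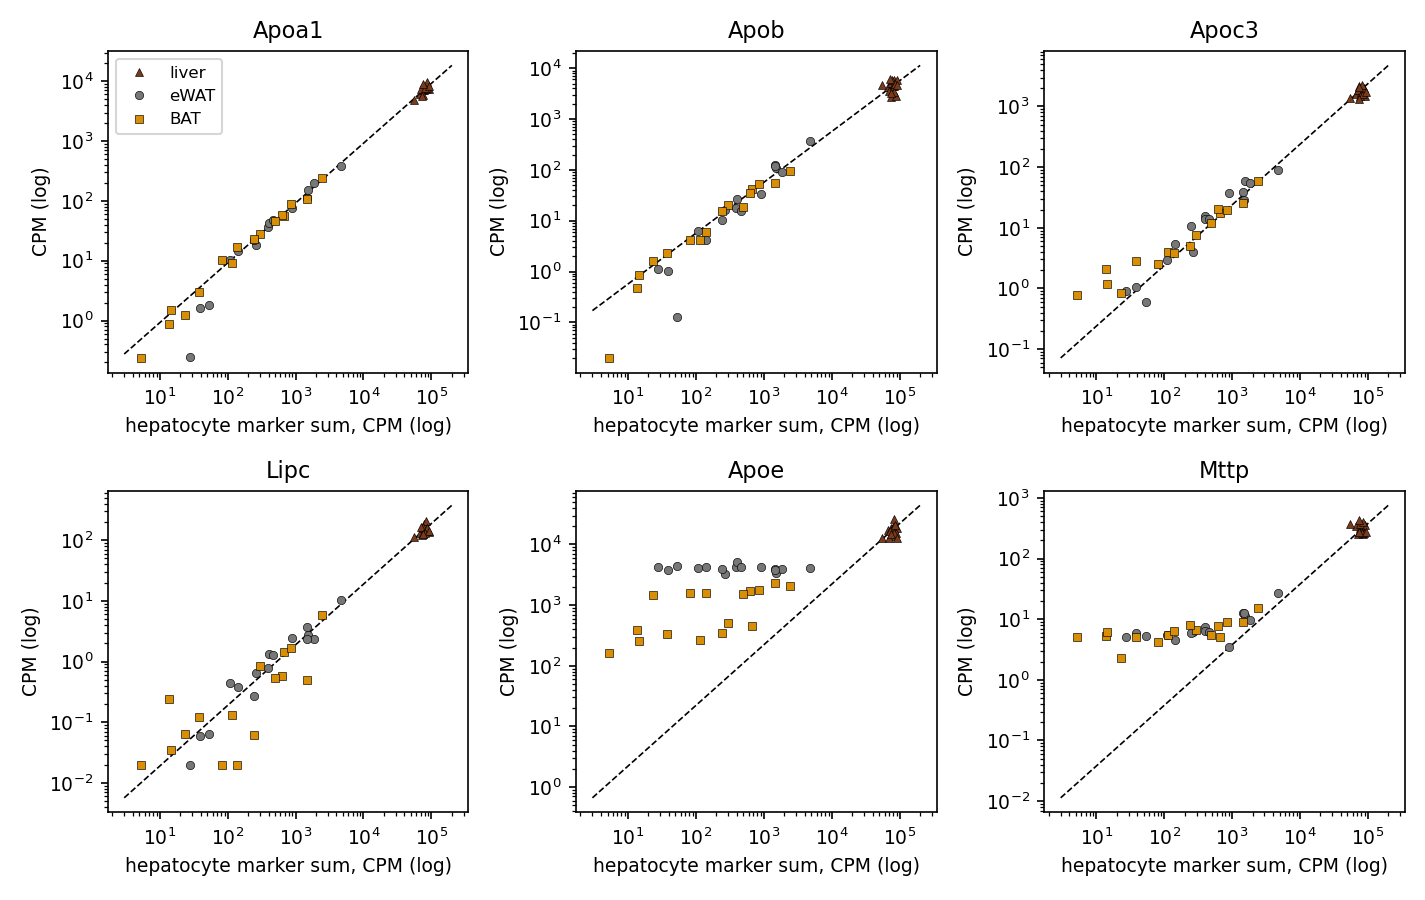
CPM of 6 genes (vertical axes, plain library CPM, log scale) against the summed CPM of 10 hepatocyte markers (horizontal axes, log scale) in 48 libraries; the dashed line is the median liver ratio and libraries with 0 counts are drawn at 0.02 CPM. Most adipose points of Apoa1, Apob, Apoc3 and Lipc lie around the line, with some libraries away from it, Apoe lies above it in all 32 adipose libraries, and Mttp leaves it at a level of a few CPM.

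With the log2 hepatocyte marker sum as a covariate in eWAT, Apoa4 was below WT in KO, at RT by a log2 change of -1.84 (SE 0.40, adjusted p 0.0179) and averaged over housing (-1.41, SE 0.28, adjusted p 0.00486), and -0.99 (SE 0.40, adjusted p 0.295) at TN. Without the covariate the values were -0.82 (SE 1.52, adjusted p 0.854), -1.63 (SE 1.10, adjusted p 0.448) and -2.45 (SE 1.60, adjusted p 0.556). The other 8 members tested in eWAT were not called with the covariate, and their log2 changes averaged over housing ran from -0.36 to 0.04. No member other than Apoe was called in BAT with it.

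Apoa4 was also set against Apoa1 as a ratio within each library, which needs no scaling. In liver, Apoa4 counts were 10.8% to 33.7% of Apoa1 counts in WT RT, 3.92% to 5.13% in KO RT, 18.1% to 41.3% in WT TN and 8.23% to 15.3% in KO TN. In the eWAT libraries with at least 1000 Apoa1 counts, they were 17.6% and 19.9% in the 2 WT RT libraries, 3.44% to 5.05% in 3 KO RT libraries, 9.03% to 28.0% in 3 WT TN libraries and 8.53% in 1 KO TN library. Among these libraries, WT RT and KO RT did not overlap in either tissue, and each eWAT range at RT overlapped the liver range of its group. The eWAT RT libraries below the limit were WT replicate 12 at 7.18% of 529 Apoa1 counts, WT replicate 15 at 0% of 55 and KO replicate 9 at 3.72% of 323. With them included, WT RT and KO RT overlapped in eWAT. At TN, the eWAT KO libraries below the limit were replicate 3 at 11.0% of 802 Apoa1 counts, replicate 21 at 9.07% of 805 and replicate 5 at 17.2% of 58. The WT library below it was replicate 7 at 143% of 7. With these included, WT TN and KO TN overlapped in eWAT. In BAT the ratio was 8.84% in 1 WT RT library, 7.51% in 1 KO RT library, 8.56% to 9.66% in 3 WT TN libraries and 8.73% and 15.3% in 2 KO TN libraries, with no separation by genotype. The BAT values of WT RT and WT TN lay below the liver range of their group, and that of KO RT lay above it. Of the KO TN values, 8.73% lay within the liver range and 15.34% just above its end of 15.29%. The few eWAT and BAT libraries that reached the limit were chosen by their Apoa1 counts, and no test was made.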

How the data were processed

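RNA of 48 libraries had been sequenced, and the deposited counts are whole reads per Ensembl gene, not normalized. Per the submitters' processing notes, fastp, STAR 2.6.1d and featureCounts 1.5.0-p3 were used with GRCm38/mm10; the annotation release and the strand setting are not given in the sources used here. Groups came from the sample labels. The members and the gene lists were chosen with earlier results of these data known.

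In R 4.3.3, genes were filtered with filterByExpr (minimum count 10), scaled by TMM and tested per tissue over 16 libraries with edgeR 4.0.16 (robust quasi-likelihood, Benjamini-Hochberg adjusted). Tissues were compared in a fit over 48 libraries, which were scaled together there. Marker sums and ratios used plain library totals. Scripts were tested on simulated data. Alternatives were DESeq2 1.42.0, other scaling and filters, fits to fewer libraries, marker covariates and a replicate block. Genes outside the list were named if called in a pathway list, or as the 3 most correlated with a called member (CPM plus 0.5); a called pathway gene is not reported here. The labels call libraries biological replicates, and p-values measure the spread between them.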

Additional observations from a re-analysis of the deposited data

Results flagged for a closer look

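In some groups of 4 libraries, 1 library stood apart from the other 3 by Dixon's criterion. This held for 14 of 116 groups tested. The criterion flags about 1 in 20 groups by chance when values are independent and normally spread. The count of 14 cannot be weighed against that rate. Some flags were for Apoc2 groups with counts in only 1 library, and some libraries were flagged for more than 1 gene. In liver, Apoa4 was 2076 CPM in WT RT replicate 11 (others 878 to 1033), and Apoe was lowest in KO TN replicate 5 at 12219 CPM (others 14513 to 14763). Apoa1 was 8180 CPM (others 7333 to 7407) and Apoa5 1358 CPM (others 1107 to 1141) in KO RT replicate 16, and Apoa5 was 1512 CPM in KO TN replicate 2 (others 1180 to 1224).

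In BAT, replicate 15 of WT RT was highest for Apob at 26.5 CPM (others 0.626 to 4.27), Apoa5 at 6.00 CPM (others 0.417 to 1.29), Apoa4 at 3.28 CPM (others 0 to 0.475) and Apoc2 at 0.0670 CPM (others 0). Lipc was 1.66 CPM in KO RT replicate 9 (others 0 to 0.0681) and 4.92 CPM in KO TN replicate 2 (others 0 to 0.436). Apoc2 was 0.214 CPM in BAT WT TN replicate 1, 0.112 CPM in eWAT KO RT replicate 16 and 0.0685 CPM in eWAT KO TN replicate 3, with 0 counts in the other libraries of those groups.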

How the results depend on the processing

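Of 26 counts of called members, 10 changed by over 1.5 times under some alternative, and no called result changed direction. In liver, the KO against WT count at RT, 0 by edgeR, was 2 by DESeq2, 1 in the fit to only the 8 libraries compared, and 0 to 1 when 1 library was left out. At TN the count of 2 was 1 to 3 when 1 library was left out. Between temperatures in KO the count of 0 was 1 by DESeq2 and 1 with only the 8 libraries; averaged over genotype it was 1 by DESeq2 and 0 to 1 when 1 library was left out. In BAT the TN against RT counts of 1 (WT, KO, averaged) became 0 with the macrophage covariate, and in eWAT the KO against WT counts of 0 at RT and averaged became 1 with the hepatocyte covariate. For eWAT against BAT the count of 1 was 1 to 2 when 1 library was left out. The cause was not tested. Over all genes, KO against WT in liver gave 15 calls at RT and 203 by DESeq2, and 560 at TN and 1111 by DESeq2. Of 210 pairs of member and comparison within a tissue, 90 had another sign under some alternative, and none of these was a called result. The 210 pairs include those of Apoc2 in BAT and eWAT. There the main fit gave no estimate, so no change of sign could be counted.

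Replicate numbers recur across tissues but not between genotypes or temperatures. Same-numbered libraries correlated above 0.1 in 1 of 13 (liver with BAT), 1 of 11 (liver with eWAT) and 1 of 11 pairs (BAT with eWAT). The median r was 0.04, 0.03 and -0.11 in this order, beside -0.02, -0.01 and 0.03 for other numbers of the same group. Such correlations between tissues cannot decide whether a number marks the same mouse, and the main fit did not use the numbers. With a replicate block in the tissue fit, 10, 10, 1, 0 and 0 members were called, as without it, while genes called for the genotype effect fell from 619 to 148 (liver minus eWAT) and from 325 to 39 (liver minus BAT).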
